A study of Saccharomyces cerevisiae with 93 samples.

Results

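The 10 yeast genes described are genes of membrane traffic between the endoplasmic reticulum (ER) and the Golgi: YPT1 (YFL038C), GYP8 (YFL027C), TRS120 (YDR407C), YKT6 (YKL196C), GOS1 (YHL031C), ERV29 (YGR284C), UBP3 (YER151C), BRE5 (YNR051C), SLY41 (YOR307C) and PMR1 (YGL167C). They were chosen because, in yeast genetics, their overexpression changes the toxicity of human alpha-synuclein. The rule uses no value from these arrays, but the genes were chosen with earlier results of these data known. The probe of each gene was found by its yeast locus tag, which gave 1 probe per gene and 10 of 6377 probes in all.

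The study looked at rescue of yeast from alpha-synuclein, the protein that aggregates in Parkinson's disease, by small molecules. On each of 93 arrays, RNA labelled with Cy5 competed with RNA labelled with Cy3, and 1 log2 ratio per probe was deposited, so that a value of 1 is a 2-fold higher signal in the sample named first. The strains carried 2 copies of alpha-synuclein ("2-copy"), 1 copy ("1-copy") or an empty vector ("vector"), and were harvested 0, 2, 4 or 6 h after transfer to galactose. Every comparison had 3 arrays of biological replicate pairs, except 2-copy over vector at 4 h with 6.

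The label of 1 sample describes its 2-copy cells in full, and the other labels give the copy number alone. Those cells are W303 MATa yeast carrying ade2-1, ura3-1, trp1-1, his3-11,15, can1-100 and the leu2 allele of W303. Both drug pump regulators PDR1 and PDR3 are deleted with kanMX, and alpha-synuclein fused to GFP is made under the GAL promoter from integrated pRS304 and pRS306 plasmids. The time course pairs each strain with each other one: 2-copy over vector, 1-copy over vector, and 1-copy over 2-copy. At 4 h, cells with 1 of 6 compounds were set against the same strain without it, for 2-copy and for vector cells, and 2-copy was set against vector with the compound in both. No probe is named for alpha-synuclein or GFP, so that its induction could not be checked on these arrays.

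Values of 10 arrays were held suspect beforehand and left out, which kept 83. For 2-copy over vector with a compound in both strains these were arrays 2 and 3 of compounds 3, 4 and 6. For compounds added to 2-copy cells alone they were arrays 2 and 3 of compound 3, array 3 of compound 4 and array 3 of compound 6. For 2-copy over vector with a compound in both strains, the values of ERV29 and GYP8 on left-out arrays are given beside the results. Left-out values of compounds in 2-copy cells alone are not given singly. In these bulk samples, fewer cells that use a gene and less of its RNA per cell cannot be told apart. No level of a gene and no order between genes' levels can be read from ratios. Means are given ± SD over arrays, adjusted p comes from limma over all 6377 probes, and a gene was called higher or lower when adjusted p was under 0.05. Array medians lay between -0.0306 and 0.0214 and array SDs between 0.126 and 0.731.

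Proteins leave the ER in COPII-coated vesicles, which are tethered to the Golgi and fuse with it. The small Rab GTPase Ypt1 directs this step: TRAPP complexes exchange its GDP for GTP, GTPase-activating proteins such as Gyp8 turn it off, and SNARE proteins such as Ykt6 and Gos1 drive fusion. In yeast, alpha-synuclein slows ER to Golgi traffic; extra Ypt1 relieves its toxicity and extra Gyp8 worsens it. Those effects come from gene dosage experiments, whereas the ratios here are of RNA from the genes' own loci.

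After 4 h of induction, the cargo receptor gene ERV29 had the largest ratio of the 10 in 2-copy over vector cells. ERV29, PMR1, YPT1 and YKT6 were higher in 2-copy cells, and GOS1, GYP8 and SLY41 were lower. UBP3, BRE5 and TRS120 did not pass the test. In all, 7 of 10 were called, beside 61.7% of all probes. The 4 higher stood beside 32% of all probes and the 3 lower beside 29.8%. The count for the 10 genes was thus near the background of a transcriptome that had shifted broadly, and the median of their means was 0.08 against 0.00 over all probes. At 6 h 5 of 10 were called beside 42.8% of probes. PMR1 and TRS120 were the 2 higher (22.6% of probes) and GOS1, GYP8 and SLY41 the 3 lower (20.2%). At 2 h 3 of 10 were called beside 12.2%, ERV29 higher and GOS1 and SLY41 lower. At 0 h 0 of 10 passed limma's test beside 14.8%, with 3 at an unadjusted p under 0.05.

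**Figure D1:**
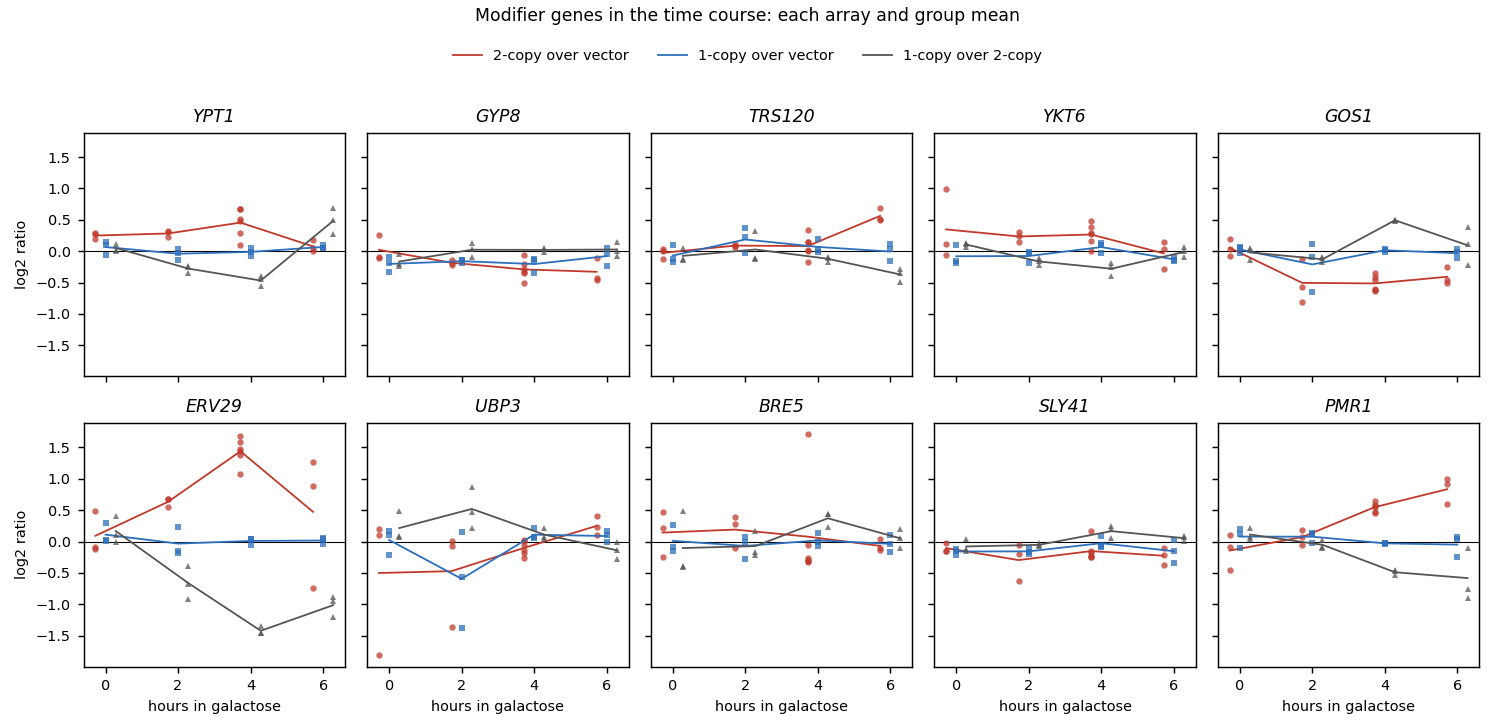
Log2 ratio (y axis) of each modifier gene on every array of the time course against hours in galactose (x axis); points are arrays and lines join group means, for 2-copy over vector (red), 1-copy over vector (blue) and 1-copy over 2-copy (grey). ERV29 climbs to a mean of 1.44 at 4 h in 2-copy over vector and lies at -1.42 in 1-copy over 2-copy, while all means of 1-copy over vector lie between -0.59 (UBP3 at 2 h) and 0.19.

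The Rab GTPase itself, YPT1, was higher in 2-copy than in vector cells at 4 h on all 6 arrays. The lowest array had 0.09, the median was 0.49 and the highest array had 0.68. The mean of 0.46 ± 0.228 is a 1.37-fold ratio (adjusted p = 5.64e-06). The mean was already 0.25 at 0 h, before induction, and the change of YPT1 from 0 h was not called at 2, 4 or 6 h. The 3 arrays had 0.29, 0.19 and 0.27 at 0 h and 0.31, 0.22 and 0.31 at 2 h, all above 0 and below the threshold (adjusted p = 0.159 and 0.115). At 6 h they had 0.17, 0.00 and 0.06 (mean 0.08, adjusted p = 0.64), lower than at 4 h by 0.38 (SE 0.147, adjusted p = 0.0398). The arrays of 6 h and 4 h overlapped, because 1 of the 6 arrays at 4 h lay at 0.09, and its call was lost without replicate 1, 2, 3 or 6 (adjusted p = 0.0563 to 0.169).

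In 1-copy over vector cells YPT1 lay between -0.14 and 0.15 on all 12 arrays of the time course. Set directly against 2-copy cells at 4 h, 1-copy cells had -0.55, -0.45 and -0.40 (mean -0.47, adjusted p = 0.000973), and the difference of both vector comparisons gave the same -0.47. At 6 h the direct arrays turned to 0.69, 0.27 and 0.49 (mean 0.49, adjusted p = 0.000866), all above 0, whereas the vector comparisons gave -0.01. That gap of 0.49 compares with an SD of 0.273 for the same gap over all probes, and is 1.81 SD. Of the 40 such gaps of the 10 genes at 4 times, 5 were over 2 SD: UBP3 at 2 h (3.07), YKT6 at 0 h (2.41), BRE5 at 4 h (2.34), ERV29 at 6 h (-2.03) and GOS1 at 2 h (-2.02). The call at 6 h was lost without replicate 1 (0.38, adjusted p = 0.0732) and with a dye term (0.21, adjusted p = 0.162).

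GYP8, the GTPase-activating protein gene, was lower in 2-copy cells. At 4 h its 6 arrays ran between -0.50 and -0.07 with a median of -0.31, all below 0 (mean -0.29 ± 0.149, adjusted p = 5.05e-06). At 6 h the arrays had -0.42, -0.46 and -0.10 (mean -0.33, adjusted p = 0.000345). These are small ratios of 0.818-fold and 0.796-fold. With all 93 arrays in the fit adjusted p was 0.0757 and 0.198, but there the suspect arrays, which are of other groups, enter the shared spread. The call at 6 h was also lost with array scaling and in a fit to the arrays of that group alone, neither of which uses the suspect arrays. From 0 h, where its arrays had -0.11, 0.26 and -0.09, the ratio had fallen by 0.31 at 4 h (adjusted p = 0.00523) and by 0.35 at 6 h (adjusted p = 0.0113); the arrays overlapped with those of 0 h because of those at -0.07 and -0.10. Both changes lost their call without replicate 2, whose array had 0.26 at 0 h (-0.21, adjusted p = 0.145, and -0.16, adjusted p = 0.414). GYP8 also lay below 0 in 1-copy over vector cells on all arrays of 0, 2 and 4 h (means -0.20, -0.16 and -0.20), none of which passed the test (adjusted p = 0.148 to 0.279). With each array scaled to the same spread, those of 0 and 4 h did (-0.25 and -0.28, adjusted p = 0.0438 and 0.017), but that step itself enlarged the ratios. In 1-copy over 2-copy cells GYP8 lay at 0.02 at both 2 and 4 h.

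TRS120 encodes a subunit of the TRAPPII complex, an exchange factor complex of the Golgi. It stood apart from YPT1 in time. At 4 h its 6 arrays ran between -0.17 and 0.34 on both sides of 0 (mean 0.08, adjusted p = 0.512). At 6 h they had 0.51, 0.69 and 0.49 (mean 0.56 ± 0.108, 1.48-fold, adjusted p = 0.00157), above every array of 0, 2 and 4 h. With array scaling this mean was 0.32 and lost its call (adjusted p = 0.128). The ratio had risen by 0.59 from 0 h (adjusted p = 0.0303) and by 0.48 from 4 h (adjusted p = 0.034). Without replicate 2 or 3 neither rise passed the test (adjusted p = 0.0753 to 0.13), and without replicate 4 or 5 the rise from 4 h did not either (0.072 and 0.0525). In 1-copy over 2-copy cells at 6 h TRS120 had -0.49, -0.28 and -0.35 (mean -0.37, adjusted p = 0.0392), with the call lost without replicate 1 or 3 (0.142 and 0.155).

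At 4 h the SNARE genes stood on opposite sides of 0 in 2-copy over vector cells, but the change of YKT6 from 0 h was not called at 2, 4 or 6 h. GOS1, which encodes a Golgi SNARE, was called lower in 2-copy than in vector cells at 2, 4 and 6 h. Its arrays had 0.20, 0.03 and -0.07 at 0 h (mean 0.05). At 2 h they had -0.57, -0.13 and -0.81 (mean -0.50, adjusted p = 0.00288). All 3 were below every array of 0 h. At 4 h the 6 arrays ran between -0.63 and -0.35 with a median of -0.53 (mean -0.51 ± 0.122, 0.7-fold, adjusted p = 7.55e-07), and at 6 h they had -0.51, -0.47 and -0.25 (mean -0.41, adjusted p = 0.00524). The change from 0 h was -0.56 at 2 h, -0.57 at 4 h and -0.46 at 6 h (adjusted p = 0.0396, 0.00155 and 0.041), and at each of these times no array overlapped with those of 0 h.

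The change of GOS1 at 4 h kept its call without any 1 replicate. That at 2 h lost it without replicate 1, 2 or 3 (0.0574 to 0.259), and that at 6 h without 1 or 2 (0.216 and 0.192). Against 0, the mean of 2 h was lost without replicate 3 (-0.35, adjusted p = 0.16) and that of 6 h without replicate 2 (-0.38, adjusted p = 0.0827). A dye term ended both calls (-0.27 and -0.22, adjusted p = 0.158 and 0.145), and array scaling that of 6 h (-0.23, adjusted p = 0.151). The direct comparison did not give the same direction at 2 h: 1-copy over 2-copy cells had -0.17, -0.10 and -0.11 (mean -0.13, adjusted p = 0.548), where the difference of both vector comparisons gave 0.29. In 1-copy over 2-copy cells GOS1 had 0.50, 0.48 and 0.50 at 4 h, the tightest arrays of any called value in the time course (mean 0.49 ± 0.0144, adjusted p = 0.000647). At 6 h they had 0.12, -0.22 and 0.38 (mean 0.09, adjusted p = 0.563).

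YKT6 encodes a SNARE that acts at several steps of the secretory pathway. It was higher in 2-copy cells at 4 h, between 0.00 and 0.47 with a median of 0.28 (mean 0.27 ± 0.167, 1.2-fold, adjusted p = 0.00888). None of the 6 arrays was below 0, but 1 lay at 0.00. Without replicate 1 adjusted p became 0.0501, with array scaling 0.114 and with a dye term 0.445. At 0 h 1 array stood far above the others (0.99, against 0.11 and -0.06), so that the mean of 0.35 had an SD of 0.561 (adjusted p = 0.0538) and was 0.03 without it. At 2 h the arrays had 0.24, 0.31 and 0.15 (mean 0.23, adjusted p = 0.238), and at 6 h 0.03, 0.15 and -0.29 (mean -0.03).

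ERV29, the receptor that loads soluble secretory proteins into COPII vesicles, was higher in 2-copy cells by 1.44 ± 0.211 at 4 h, or 2.71-fold (adjusted p = 8.15e-12). Its 6 arrays ran between 1.07 and 1.69 with a median of 1.46, and the lowest was above the highest array of any other of the 10 genes at 4 h except BRE5. At 0 h the arrays had -0.09, -0.11 and 0.48 (mean 0.09) and at 2 h 0.67, 0.67 and 0.55 (mean 0.63, adjusted p = 0.0478). The mean of 2 h lay near the threshold and lost its call without any 1 of the replicates (0.0656 to 0.203). The change from 0 to 4 h was 1.35 (SE 0.271, adjusted p = 4.53e-05), with no overlap of arrays.

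At 6 h the 3 arrays of ERV29 disagreed, with 1.27, -0.74 and 0.89. The mean of 0.48 ± 1.07 did not pass the test (adjusted p = 0.0765), while without replicate 2 it was 1.08 (adjusted p = 0.000154). The fall of 0.96 from 4 to 6 h (adjusted p = 0.00383) rested on that array and was 0.36 without replicate 2 (adjusted p = 0.306). The direct comparison gives no such spread: 1-copy over 2-copy cells had -0.95, -1.21 and -0.88 at 6 h (mean -1.01 ± 0.174, adjusted p = 0.000179). It had -0.92, -0.38 and -0.68 at 2 h (mean -0.66, adjusted p = 0.0382, lost without replicate 1 or 3 at 0.317 and 0.185). At 4 h it had -1.46, -1.45 and -1.35 (mean -1.42 ± 0.0608, adjusted p = 2.96e-07). In 1-copy over vector cells ERV29 lay between -0.19 and 0.30 on all 12 arrays.

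UBP3 and BRE5 encode a deubiquitinating enzyme and its cofactor, which act together on the COPII subunit Sec23. Neither was called at any time in 2-copy over vector cells, and single arrays set their spread. UBP3 had 0.21, 0.11 and -1.82 at 0 h (mean -0.50, adjusted p = 0.107; 0.16 without replicate 3) and -1.36, 0.01 and -0.06 at 2 h (mean -0.47, adjusted p = 0.147; -0.02 without replicate 1). Without replicate 1 or 2 the mean of 0 h passed the test (-0.85 and -0.80, adjusted p = 0.0348 and 0.0397). At 4 h all 6 arrays lay between -0.26 and 0.02 (mean -0.10), and at 6 h the arrays had 0.24, 0.41 and 0.10 (mean 0.25, adjusted p = 0.364). A like array appears in 1-copy over vector cells at 2 h, with -1.37, 0.15 and -0.56 (mean -0.59, adjusted p = 0.0944; -0.97 without replicate 2, adjusted p = 0.025).

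BRE5 had 1.71 on array 3 of 2-copy over vector at 4 h and between -0.32 and -0.05 on the other 5. The mean was 0.08 (SD 0.806, adjusted p = 0.656) with that array and -0.25 without it (adjusted p = 0.108), so that its direction at 4 h depends on 1 array. The 1-copy over 2-copy arrays, at 0.43, 0.44 and 0.24, averaged 0.37 (adjusted p = 0.139). All other time course means of BRE5 lay between -0.10 and 0.19.

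SLY41, a membrane protein gene isolated because extra copies bypass loss of Ypt1, was slightly lower in 2-copy cells. Means were -0.10, -0.29, -0.15 and -0.23 at 0, 2, 4 and 6 h, the last 3 called (adjusted p = 0.0209, 0.0354 and 0.0373). At 2 h 1 array gave most of it (-0.63, against -0.20 and -0.06; -0.13 without replicate 3, adjusted p = 0.614). At 4 h 5 arrays lay between -0.25 and -0.15 and 1 at 0.16. The call at 4 h was lost without any of replicates 1, 2, 3, 5 and 6 (0.0618 to 0.145), and that at 6 h, with -0.21, -0.37 and -0.10, without 1 or 2 (0.102 and 0.365). A dye term ended all 3 calls, as did fits to the arrays of each group alone, and array scaling ended those of 4 and 6 h. From 0 h none of the changes passed the test.

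PMR1 encodes the Golgi pump for calcium and manganese and was higher at both late times. In 2-copy over vector cells its arrays had 0.10, -0.08 and -0.45 at 0 h (mean -0.14) and -0.05, 0.08 and 0.19 at 2 h (mean 0.07, adjusted p = 0.839). At 4 h the 6 arrays lay between 0.46 and 0.65 (mean 0.55 ± 0.0707, 1.46-fold, adjusted p = 2.41e-05), and at 6 h the arrays had 0.60, 0.91 and 0.99 (mean 0.84 ± 0.205, 1.78-fold, adjusted p = 1.59e-05). No array of 4 or 6 h overlapped with those of 0 or 2 h. The ratio had risen from 0 h by 0.69 at 4 h (adjusted p = 0.0027) and by 0.98 at 6 h (adjusted p = 0.000619), of which both lost the call without replicate 3, whose array had -0.45 at 0 h (0.53 and 0.75, adjusted p = 0.075 and 0.0585). The step of 0.29 between 4 and 6 h did not pass the test (adjusted p = 0.265).

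In 1-copy over 2-copy cells PMR1 had -0.46, -0.47 and -0.54 at 4 h (mean -0.49, adjusted p = 0.00826) and -0.10, -0.75 and -0.90 at 6 h (mean -0.58, adjusted p = 0.00224). The mean of 4 h lost its call without replicate 1 or 3 (0.0588 and 0.0594) and that of 6 h without replicate 3 (-0.42, adjusted p = 0.0973). In 1-copy over vector cells PMR1 lay between -0.25 and 0.21 on all 12 arrays.

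Over the changes from 0 h in 2-copy over vector cells, 1 of 10 modifiers was called at 2 h (GOS1) beside 5.63% of probes. At 4 h 4 were called (ERV29, PMR1, GOS1 and GYP8) beside 40.4%, and at 6 h 4 (PMR1, TRS120, GOS1 and GYP8) beside 25.6%. Between 4 and 6 h 3 were called (YPT1, ERV29 and TRS120) beside 33.1%. These changes share the arrays of 0 h or 4 h.

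With 1 copy of alpha-synuclein, 0 of 10 modifiers differed from vector cells at 0, 2, 4 or 6 h by limma's test, beside 2.98%, 5.76%, 0.643% and 0.8% of probes. At an unadjusted p under 0.05 the counts were 1, 2, 1 and 0. Changes of the 1-copy over vector ratio gave 0 of 10 as well, beside 0.0157%, 0%, 0.0784% and 0.047% of probes for 2, 4 and 6 h minus 0 h and 6 h minus 4 h. The unadjusted counts were 1, 0, 0 and 0. At 4 h the 95% intervals reached from -0.43 to 0.45 for ERV29 and from -0.25 to 0.23 for YPT1, so that the 2-copy means of these 2 genes lay outside them. No such limit is given for the other genes. GYP8 had a mean of -0.20 with 1 copy at 4 h, near its -0.29 with 2 copies, and 0.02 in 1-copy over 2-copy cells. Set against 2-copy cells, 1-copy cells had 0, 1, 4 and 4 modifiers called at 0, 2, 4 and 6 h, beside 4.5%, 11.9%, 48% and 39.8% of probes, with 1 at an unadjusted p under 0.05 at 0 h. At 2 h the 1 was ERV29, at 4 h YPT1, ERV29 and PMR1 were lower and GOS1 higher, and at 6 h ERV29, PMR1 and TRS120 were lower and YPT1 higher.

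The other genes of the same pathway were read from 8 lists of 115 genes in all, at 4 h in 2-copy over vector cells, beside 32% of probes higher and 29.8% lower. Of 25 other Rab GTPases and regulators 15 were higher and 5 lower (median 0.34). GYP7, a GTPase-activating protein for the vacuolar Rab, stood at 1.92 ± 0.3, further from 0 than any of the 10 modifiers, and YIP3, a Rab-interacting membrane protein, at 1.15. GYP6 (-0.44) and the vacuolar Rab YPT7 (-0.38) were the lowest called. Of 10 other TRAPP subunits 3 were higher and 0 lower (median 0.13), with TRS65 of TRAPPII at 0.80 and TRS85 of TRAPPIII at 0.28, where TRS120 stood at 0.08. At 6 h TRS65 stood at 1.02 beside 0.56 for TRS120.

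Of 23 other SNAREs and tethers 9 were higher and 8 lower (median 0.10). VTI1 (0.62) and BOS1 (0.56) were the highest, and SFT1 (-0.65) and SEC20 (-0.53) the lowest. Of 10 genes listed with the COPII coat, not all of them coat subunits, 8 were higher and 1 lower (median 0.40). SEC24, the cargo-binding coat subunit, stood at 1.02 ± 0.189 and SEC13 at 0.83 with an SD of 0.957, while SED4 was lower at -0.24. Of 13 COPI coat and ARF genes 9 were higher and 1 lower (median 0.39), with RET3 at 0.85, ARF2 at 0.65 and COP1 at -0.32.

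Of 16 other cargo receptors of the ER and Golgi 5 were higher and 4 lower (median -0.09). ERD2, the receptor that returns ER residents from the Golgi, stood at 0.93 and ERV25 at 0.65, and ERP3 at -0.76 and EMP46 at -0.58. None of these 16 was as high as ERV29. Of 12 other calcium and manganese transporters 4 were higher and 4 lower (median 0.06): the vacuolar calcium pump PMC1 stood at 0.98 and the ER ATPase SPF1 at 0.81, beside 0.55 for PMR1, with GDT1 at -0.49 and YPK9 at -0.46. Of 6 genes of calcineurin and its transcription factor CRZ1, a pathway that calcium switches on, 5 were higher and 0 lower (median 0.48), with the catalytic subunit CMP2 at 0.97 and calmodulin CMD1 at 0.56. At 6 h 1 of these 6 was higher and 1 lower, beside 22.6% and 20.2% of probes, and CMD1 stood at -0.25. In 1-copy over vector cells at 4 h limma called 0 of the 109 genes of the other 7 lists, and 1 of the 6 calcineurin and CRZ1 genes was higher, beside 0.643% of probes called.

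The 6 compounds are related dihydroquinolinones. Compounds 1, 2 and 6 share a benzo-fused quinolinone, and compounds 3, 4 and 5 a dimethyl quinolinone. Compound 1 carries iodine and compound 2 bromine at the same place of a phenyl group. Compounds 3 and 4 carry a bromofluorophenyl group and differ in where the halogens sit. Compound 6 has a 4-ethylphenyl group, a bromine on the ring system and 1 stated stereocentre, and the labels give the substituent of compound 5 as 4-ethyl. All samples were taken at 4 h. Doses are not given in the labels, so that differences between compounds are not differences at a known matched dose.

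In 2-copy cells, compounds 1 and 2 lowered ERV29 more than any other modifier, and compounds 3, 5 and 6 called none of the 10. Compound 1 called 4 of 10 modifiers, GYP8 higher and ERV29, PMR1 and TRS120 lower, beside 37% of probes. Compound 2 called 7, beside 37% of probes: GOS1, SLY41 and GYP8 higher (16.6% of probes) and ERV29, TRS120, PMR1 and YPT1 lower (20.5%). Compound 4, with 2 arrays kept, called 2 (ERV29 and TRS120, both lower) beside 13.1%. Compounds 3 (1 array kept), 5 and 6 (2 arrays kept) called 0 by limma's test, beside 6.77%, 2.12% and 0.0157% of probes, with 2, 1 and 0 at an unadjusted p under 0.05. A group with 1 array was taken to vary like the other groups and has no replicate check of its own.

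**Figure D2:**
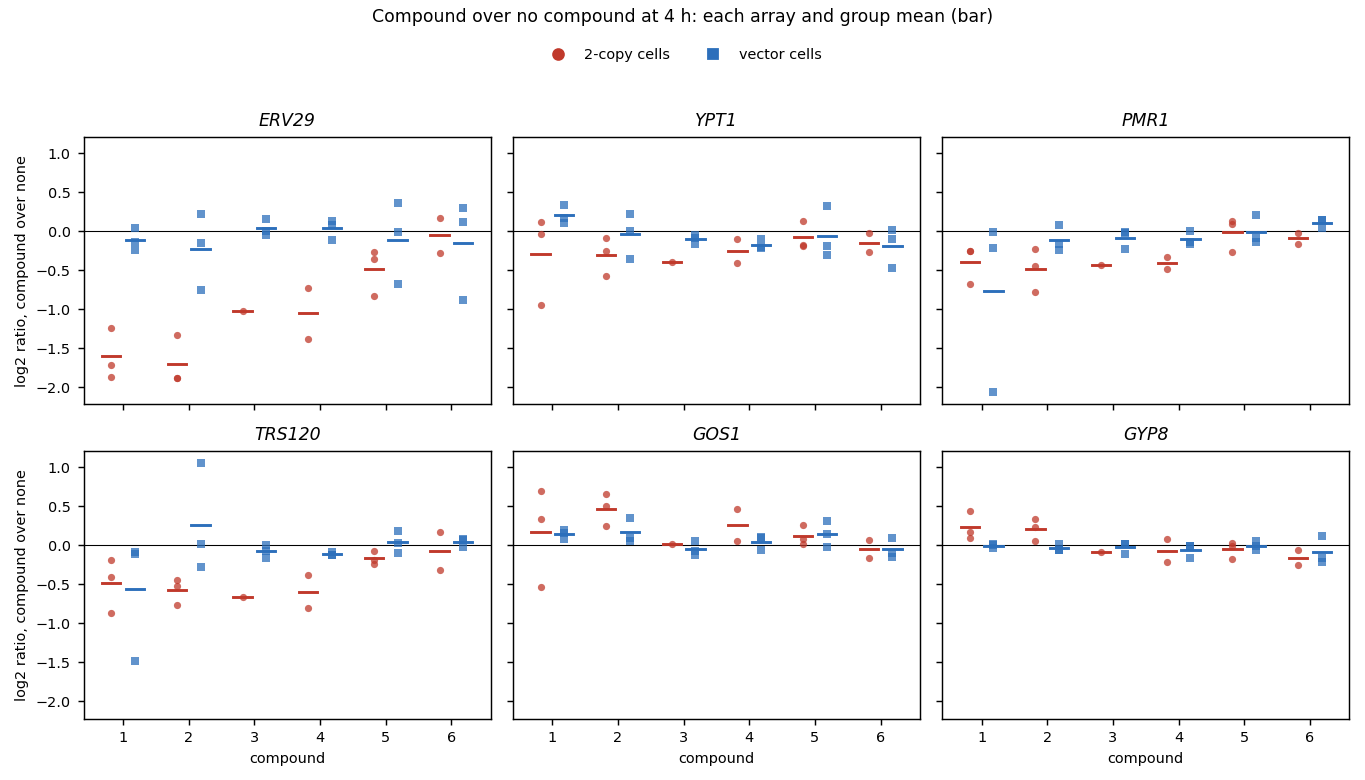
Log2 ratio of cells with a compound over the same strain without it at 4 h (y axis) for compounds 1 to 6 (x axis), with a panel for each of 6 modifiers; red circles are arrays of 2-copy cells, blue squares arrays of vector cells, and bars group means. ERV29 lies between -1.89 and -1.24 in 2-copy cells with compounds 1 and 2 while the means in vector cells lie between -0.23 and 0.04 with single arrays down to -0.88, and array 2 of compound 1 in vector cells is the low square in the PMR1 and TRS120 panels.

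ERV29 had -1.86, -1.72 and -1.24 in 2-copy cells with compound 1 over those without (mean -1.61 ± 0.329, 0.329-fold, adjusted p = 5.15e-08). With compound 2 it had -1.88, -1.89 and -1.33 (mean -1.70 ± 0.322, 0.308-fold, adjusted p = 9e-09). All 6 arrays were far below 0. The array kept for compound 3 had -1.02 (adjusted p = 0.0917), and the 2 for compound 4 had -0.73 and -1.38 (mean -1.06, adjusted p = 0.00467). The call for compound 4 was lost without replicate 2 (-0.73, adjusted p = 0.133) and with the left-out array (-0.70, adjusted p = 0.069). With compound 5 the arrays had -0.83, -0.36 and -0.27, all below 0 but not past the threshold (mean -0.49, adjusted p = 0.252), and with compound 6 they had 0.17 and -0.28. The compounds differed among themselves in 2-copy cells for ERV29 by a moderated F test (adjusted p = 0.00142), a call lost with array scaling (0.266) and in the fit to those arrays alone (0.0729).

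In vector cells the same compounds gave ERV29 means nearer to 0 that did not pass the test. ERV29 had 0.04, -0.14 and -0.25 there with compound 1 (mean -0.12, adjusted p = 0.885) and -0.16, -0.75 and 0.23 with compound 2 (mean -0.23, adjusted p = 0.793). The response in 2-copy cells minus that in vector cells was -1.49 for compound 1 (SE 0.312, 95% interval -2.12 to -0.86, adjusted p = 0.000444) and -1.47 for compound 2 (SE 0.312, -2.10 to -0.85, adjusted p = 0.000517), with no overlap of arrays. Arrays that do not enter those values, 2-copy over vector with the compound in both strains against 2-copy over vector without, gave -1.19 and -1.21 (adjusted p = 0.000871 and 0.000563). For compounds 3 and 4 the difference between strains was -1.06 and -1.09 (adjusted p = 0.228 and 0.0779), and for 5 and 6 it was -0.38 and 0.10 (0.734 and 1).

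TRS120 was lower in 2-copy cells with compound 1, at -0.86, -0.41 and -0.18 (mean -0.48, adjusted p = 0.00786, lost without replicate 1 at 0.205). With compound 2 it had -0.53, -0.76 and -0.44 (mean -0.58 ± 0.167, adjusted p = 0.00146, lost with a dye term and with array scaling at up to 0.0685). With compound 4 it had -0.80 and -0.39 (mean -0.59, adjusted p = 0.0195, lost without replicate 1 at 0.465 and with the left-out array at 0.0535), and the array of compound 3 had -0.66. All these arrays were below 0, although TRS120 had a ratio of 0.08 in 2-copy over vector cells at that time. In vector cells compound 2 gave 1.05, -0.27 and 0.02, and the difference between strains of -0.84 (adjusted p = 0.00303) rested on the array at 1.05: without replicate 1 it was -0.47 (adjusted p = 0.223), and from the arrays with compound in both strains -0.16 (adjusted p = 0.561).

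PMR1 was lower in 2-copy cells with compound 1, at -0.25, -0.25 and -0.67 (mean -0.39, adjusted p = 0.0434, lost without replicate 1 or 3 at 0.12 and 0.344). With compound 2 it had -0.22, -0.45 and -0.78 (mean -0.49, adjusted p = 0.0116, lost without replicate 3 at 0.199). All 6 arrays were below 0. With compound 4 it had -0.49 and -0.33 (adjusted p = 0.16), with compound 3 -0.44, and with compounds 5 and 6 means of -0.02 and -0.09.

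YPT1 had -0.57, -0.25 and -0.08 in 2-copy cells with compound 2 (mean -0.30, adjusted p = 0.0409, lost without replicate 1 or 2 at 0.495 and 0.0607). With compound 1 its arrays spread from -0.95 to 0.12 (mean -0.29 ± 0.579, adjusted p = 0.0511). Without replicate 3 that mean was -0.49 (adjusted p = 0.00958) and without replicate 2 it was 0.04. In vector cells compound 1 gave 0.17, 0.33 and 0.10, all above 0. The difference between strains of -0.49 for compound 1 (SE 0.17, adjusted p = 0.035) rested on array 2 of the 2-copy cells and was -0.09 without replicate 2 (adjusted p = 0.78), while it was -0.64 without replicate 1 (adjusted p = 0.0868). The arrays with compound in both strains, however, gave -0.50 (adjusted p = 0.00919).

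In 2-copy cells, the genes that were lower there than in vector cells went up with compound 2. GOS1 had 0.25, 0.50 and 0.66 (mean 0.47, adjusted p = 0.00164), SLY41 0.53, 0.21 and 0.32 (mean 0.35, adjusted p = 0.00126, lost without replicate 1 at 0.0738) and GYP8 0.05, 0.33 and 0.24 (mean 0.21, adjusted p = 0.026, lost without replicate 2 or 3 at 0.265 and 0.164). All 9 values were above 0. In vector cells with compound 2 GOS1 had 0.06 to 0.35 (mean 0.17), and SLY41 and GYP8 averaged 0.14 and -0.03. The difference between strains was called for none of them. From the arrays with compound in both strains it was called for GOS1 (0.40, adjusted p = 0.0387) and GYP8 (0.26, adjusted p = 0.0293) but not for SLY41 (0.11, adjusted p = 0.488). In 2-copy cells with compound 1 GYP8 had 0.44, 0.10 and 0.17 (mean 0.24, adjusted p = 0.0102, lost without replicate 1 at 0.308). GOS1 spread from -0.54 to 0.70 (mean 0.17 ± 0.637, adjusted p = 0.285), and its mean was 0.52 without replicate 1 (adjusted p = 0.0039). SLY41 had -0.55, 0.08 and 0.12 (mean -0.12, adjusted p = 0.32). Besides ERV29, GYP8 differed among the 6 compounds in 2-copy cells (moderated F, adjusted p = 0.0413), which is 2 of 10 beside 9.44% of probes. That call of GYP8 was lost without replicate 2 or 3 (0.107 and 0.209), with array scaling (0.534), with all 93 arrays (0.355) and in the fit to those arrays alone (0.696). SLY41 passed the F test with a dye term (0.0355) and with all 93 arrays (0.0492). YKT6, UBP3 and BRE5 were not called with any compound in 2-copy cells, with means between -0.14 and 0.61.

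In vector cells compound 1 called 3 of 10 modifiers, all lower, beside 5.27% of probes, and 1 array carried each. PMR1 had -0.21, -2.06 and -0.01 (mean -0.76, adjusted p = 0.00161), TRS120 -0.08, -1.49 and -0.12 (mean -0.56, adjusted p = 0.0149) and YKT6 0.00, -1.25 and -0.08 (mean -0.44, adjusted p = 0.0256). On that array 2, UBP3 had -1.40 and BRE5 -0.75 as well, and its SD over all probes was 0.536, against 0.286 and 0.243 for the other 2. Without replicate 2 the means were -0.11, -0.10 and -0.04 (adjusted p = 0.946 to 0.991).

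Compounds 2, 3, 4, 5 and 6 called 0 of 10 modifiers in vector cells by limma's test, beside 2.15%, 0.345%, 0.392%, 0.768% and 0.0157% of probes, and 0 at an unadjusted p under 0.05 for each. Among the 6 compounds in vector cells 0 of 10 modifiers differed by the F test, beside 0.423% of probes, with 3 at an unadjusted p under 0.05. The response of 2-copy cells differed from that of vector cells for 2 modifiers with compound 1 (ERV29 and YPT1) beside 17.4% of probes and for 2 with compound 2 (ERV29 and TRS120) beside 15.8%. With compounds 3, 4, 5 and 6 it differed for 0 by limma's test, beside 1.51%, 2.32%, 0.0784% and 0% of probes, with 1, 2, 0 and 0 at an unadjusted p under 0.05.

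Compounds that differ by a named change were compared as 2 pairs in 2 strains, 4 differences in all. Compound 1 minus 2, iodine against bromine, gave 0 of 10 modifiers in 2-copy cells beside 0% of probes, with 1 at an unadjusted p under 0.05. In vector cells it gave 0 of 10 beside 0.0314%, with 2 at an unadjusted p under 0.05. Compound 3 minus 4, which differ in the positions of bromine and fluorine, gave 0 of 10 in 2-copy cells beside 0.047% and 0 of 10 in vector cells beside 0%, with 0 at an unadjusted p under 0.05 in both. The intervals were wide: for ERV29 in 2-copy cells, compound 1 minus 2 was 0.10 (95% interval -0.53 to 0.72) and compound 3 minus 4 was 0.03 (-0.91 to 0.97).

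The smallest p of a modifier in 2-copy cells was that of SLY41 for compound 1 minus 2 (-0.47, -0.73 to -0.22, means of -0.12 and 0.35, adjusted p = 0.488, or 0.709 adjusted over the 4 differences together). Its arrays did not overlap, and with the paired block adjusted p was 0.193. In vector cells it was that of TRS120 (-0.83, -1.25 to -0.41, means of -0.56 and 0.27, adjusted p = 0.279, or 0.465 over the 4 differences). Same-numbered arrays of these compounds deviated together, and with that pairing as a block TRS120 passed the test (-0.83, -1.13 to -0.53, adjusted p = 0.00217). That difference holds the array of compound 1 at -1.49 and the array of compound 2 at 1.05, which carry different numbers.

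2-copy was also set against vector cells with the compound in both. Compounds 1, 2 and 5 had 3 arrays there and compounds 3, 4 and 6 had 1, against 6 without compound. Counts of calls over such unlike numbers do not measure how much of the strain difference was left. PMR1 and YKT6 lay above 0 and GOS1 below 0 on all arrays of compounds 1 and 2, while YPT1, ERV29, SLY41 and GYP8 lay on both sides. The change from no compound was called with neither for PMR1, YKT6 and SLY41, and with both only for ERV29 and YPT1. With compounds 1 and 2, 0 of 10 modifiers were called by limma's test, beside 9.94% and 7.75% of probes, and 0 at an unadjusted p under 0.05. With compounds 3 and 4, 1 array each, 0 were called beside 8.8% and 8.97%, with 1 at an unadjusted p under 0.05 for each. With compound 5, 7 were called beside 32.5%, and these were the 7 genes called without compound, in the same directions. With compound 6, 1 array, 1 was called (ERV29, higher) beside 19.6%.

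**Figure D3:**
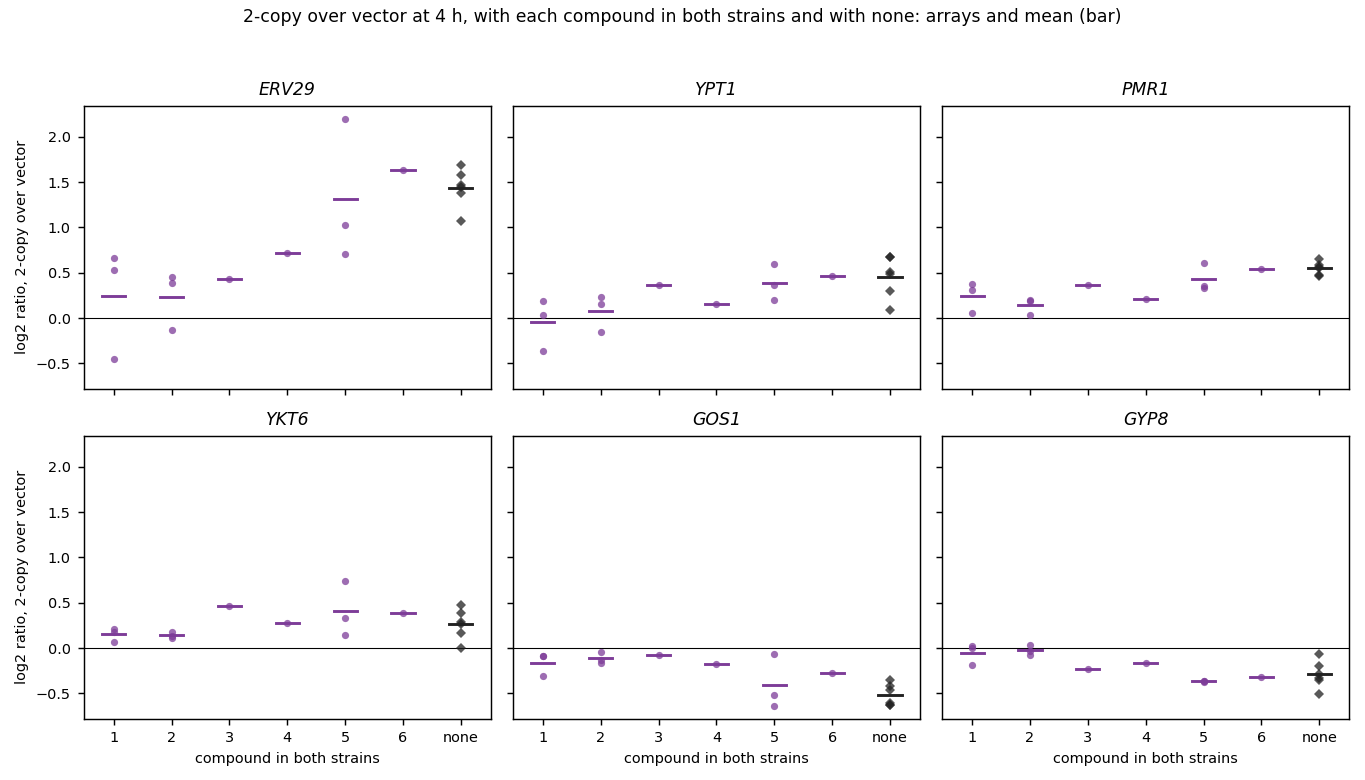
Log2 ratio of 2-copy over vector cells at 4 h (y axis) with compounds 1 to 6 in both strains and with no compound (x axis), with a panel for each of 6 modifiers; points are arrays and bars group means. ERV29 averages 0.25 and 0.23 with compounds 1 and 2, and 1.31 with compound 5, against 1.44 with no compound.

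ERV29 had -0.45, 0.53 and 0.66 with compound 1 in both strains (mean 0.25, adjusted p = 0.603) and -0.14, 0.45 and 0.38 with compound 2 (mean 0.23, adjusted p = 0.654). All 6 arrays lay below the lowest of 1.07 without compound. The arrays of compounds 3 and 4 had 0.43 and 0.71, also below it. With compound 5 the arrays had 0.71, 2.20 and 1.03 (mean 1.31 ± 0.785, adjusted p = 3.5e-06) and with compound 6 the array had 1.63 (adjusted p = 0.00138). With compound 5, the arrays at 0.71 and 1.03 lay below the lowest without compound and that at 2.20 above the highest, and the array of compound 6 lay inside that range. On the 6 left-out arrays of compounds 3, 4 and 6 in this comparison ERV29 had -0.35 to -0.13, and with them the mean for compound 6 was 0.38 (adjusted p = 0.253). GYP8 had 0.42 to 2.43 on those same 6 arrays, against -0.32 to -0.16 on the 3 kept, and with them its mean for compound 6 was 1.12. Those 6 arrays were held suspect beforehand, so that their values are no result about either gene.

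With compound 5, YPT1 had 0.20, 0.60 and 0.37 (mean 0.39, adjusted p = 0.00928) and YKT6 0.33, 0.74 and 0.15 (mean 0.41, adjusted p = 0.0101), all above 0. PMR1 had 0.33, 0.60 and 0.36 (mean 0.43, adjusted p = 0.0294), GOS1 -0.07, -0.64 and -0.52 (mean -0.41, adjusted p = 0.00709) and GYP8 -0.38, -0.37 and -0.36 (mean -0.37 ± 0.0084, adjusted p = 0.000109). SLY41 had -0.10, -0.30 and -0.30 (mean -0.24, adjusted p = 0.0374). Each lay on the same side of 0 as without compound. ERV29 and GYP8 kept their call without any 1 replicate; without replicate 2 YPT1, YKT6, GOS1, SLY41 and PMR1 lost theirs (0.105 to 0.302), without replicate 3 GOS1, SLY41 and PMR1 did (0.0586 to 0.175), and without replicate 1 PMR1 did (0.0811).

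**Figure D4:**
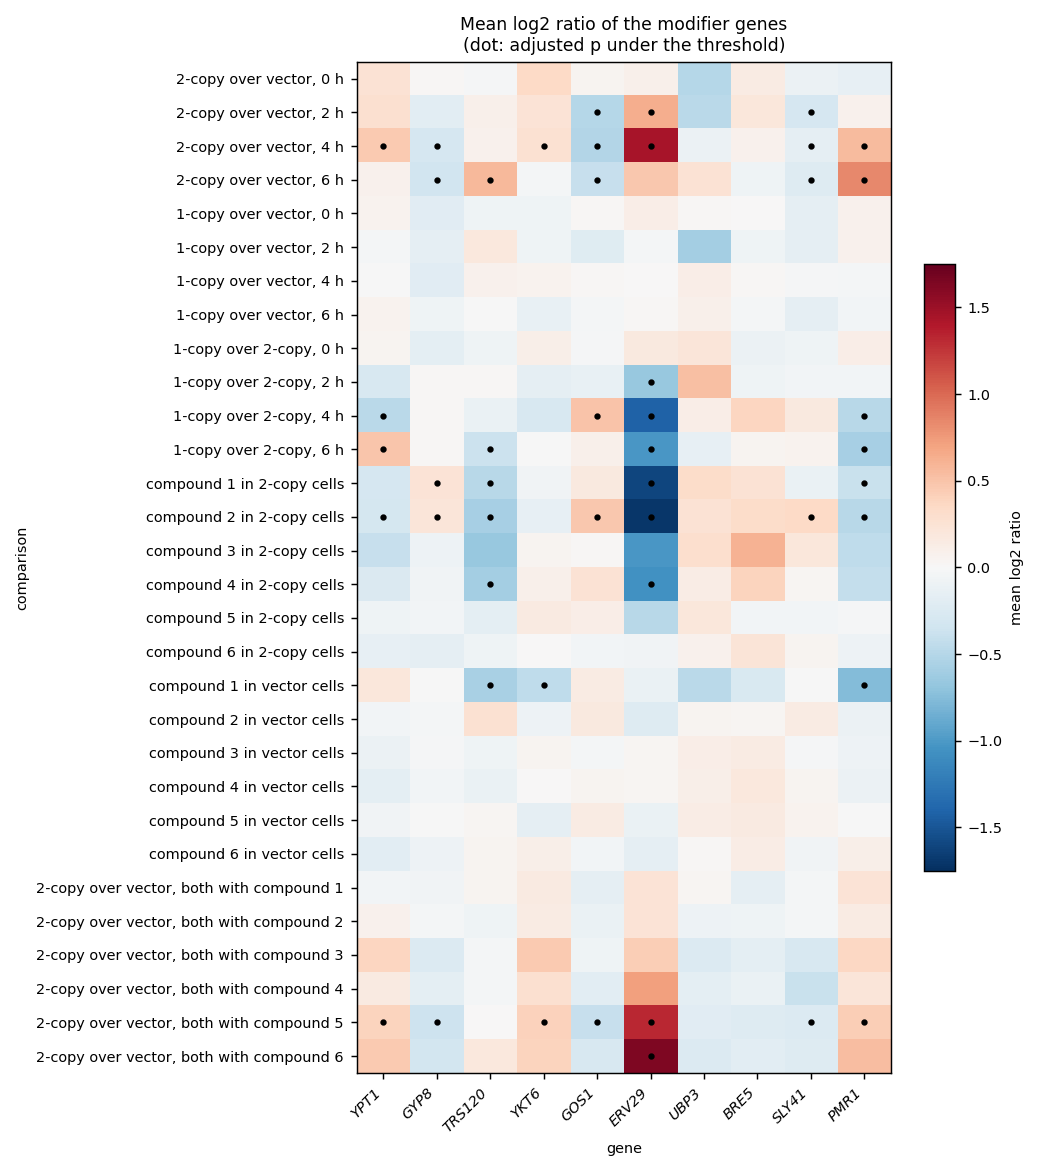
Mean log2 ratio (colour, red above 0 and blue below) of the 10 modifiers (columns) in the 30 comparisons (rows), over the kept arrays, with a dot where adjusted p was under 0.05. The ERV29 column holds the darkest cells, from -1.70 with compound 2 in 2-copy cells to 1.63 in 2-copy over vector with compound 6, and the 4 rows of 1-copy over vector hold no dot.

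Over the 83 kept arrays the log2 ratios of YPT1 and ERV29 correlated at 0.671 across arrays, and those of PMR1 and TRS120 at 0.691. GOS1 correlated at 0.650 with SLY41 and 0.551 with GYP8, and at -0.655 with ERV29. UBP3 and BRE5, whose proteins form 1 enzyme, correlated at 0.157. These arrays share strains, probes and groups, so the values describe the set and carry no test. The genes most like YPT1 among all named probes were TFS1 (0.769), SCL1 (0.765) and FMP16 (0.754), where the median over named probes was -0.00477. For ERV29 they were THI13 (0.929), ACB1 (0.926) and FPR2 (0.924), with a median of -0.0203. THI13 belongs to a family of near-identical genes, whose members the probe may not tell apart.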

How the data were processed

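Each array has 1 deposited log2 ratio for every probe, already normalised by the authors. The submitters' processing notes name limma without a version, and they do not say how background was corrected or arrays normalised. Neither the scale nor the direction is stated. Cy5 over Cy3 on a log2 scale was inferred from the way limma writes ratios, from the sample named first in each label and from the range of values. No dye was swapped. Intensities were not analysed here, so signal over background is unknown. RNA was extracted with hot phenol-chloroform, per the labels.

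Of 6377 probes, 5644 were named by locus tag in the RefSeq gene table of assembly R64, 196 after a hyphen was added to the tag, and 537 matched no gene there. The labels give 30 groups, and limma 3.58.1 in R 4.3.3 fitted 1 mean per group to the 83 kept arrays (57.6 degrees of freedom, 4.61 of them prior). Tests were two-sided, with Benjamini-Hochberg adjustment over all probes of a comparison and a threshold of 0.05. There were 30 means against 0, 18 differences of means and 2 moderated F tests. Named genes were all 10 modifiers, up to 2 highest and 2 lowest called members of each other list at 4 h, and the 3 genes most like YPT1 and like the modifier with the largest mean. Members and lists were chosen with earlier results of these data known.

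Same-numbered arrays deviated together (residual correlation over 0.1 for all 3 numbers) for compound 1 minus 2 (0.668, 0.678 and 0.741 in 2-copy, 0.201, 0.659 and 0.181 in vector cells) and for compound 3 minus 4 in vector cells (0.460, 0.387 and 0.668), and in no other difference. A replicate block of those groups was added after seeing the data. The alternatives were a dye term, scaling each array to 1 median absolute deviation, all 93 arrays, a replicate block over all arrays, a fit to a comparison's own arrays, leaving out each replicate number and, for strain differences with compound, the other sides of the array loop. On simulated data for 6377 probes, 89.6% of changes of 0.5 were called for 2-copy over vector at 4 h, 50.7% for compound 2 in 2-copy cells and 29.9% for compound 4 in 2-copy cells. Of changes of 1, 98.5%, 95.5% and 84.8% were called. The simulation had independent normal noise, no outlying arrays and few changed probes (67 by 0.3, 67 by 0.5 and 66 by 1 per group). In the arrays themselves 61.7%, 37% and 13.1% of probes were called, so that these rates are not the power of the tests reported here.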

Additional observations from a re-analysis of the deposited data

Results flagged for a closer look

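In 2-copy over vector cells at 4 h, a single array lay far from the other 5 for BRE5 (1.71) and for SLY41 (0.16). Chance alone puts about 1 in 20 groups past this limit, and only that group held enough arrays for the check.

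The 2-copy over vector ratio differed between times by a test of the difference itself. At 2 h minus 0 h it was -0.56 for GOS1. At 4 h minus 0 h it was 1.35 for ERV29, 0.69 for PMR1, -0.57 for GOS1 and -0.31 for GYP8. At 6 h minus 0 h it was 0.98 for PMR1, 0.59 for TRS120, -0.46 for GOS1 and -0.35 for GYP8. At 6 h minus 4 h it was -0.38 for YPT1, -0.96 for ERV29 and 0.48 for TRS120. Of these differences, only those of ERV29 and GOS1 at 4 h minus 0 h kept their call under all alternatives run. The fall of ERV29 from 4 to 6 h rested on 1 array of 6 h.

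The response to a compound differed between 2-copy and vector cells, also by a test of the difference. With compound 1 it was -1.49 for ERV29 and -0.49 for YPT1, and with compound 2 -1.47 for ERV29 and -0.84 for TRS120. Of these, only ERV29 with compound 2 kept its call under all alternatives run.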

How the results depend on the processing

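Of 64 called values of single modifiers, 13 kept their call under all alternatives run and 0 reversed. The call was kept by 45 with a dye term, 33 with array scaling, 49 with all 93 arrays, 64 with the replicate block and 24 of 63 in fits to a comparison's own arrays. Groups of 1 to 3 arrays limit what such fits can call, and signal over background is unknown. Of 396 counts of called modifiers under an alternative, 323 stayed within 1.5 times and 73 moved. The share of all probes called was not taken under the alternatives. The counts below therefore have no background beside them and are no result about the modifiers as a set.

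With the replicate block, the count for 2-copy over vector at 0 h was 1 in place of 0 (YKT6), and for compound 1 minus 2 in vector cells the pairing of the 2 groups gave 1 in place of 0 (TRS120). The block over all arrays ended none of the 64 calls, and for compound 1 in 2-copy cells it brought YPT1 past the threshold (adjusted p = 0.0457). Array scaling gave 1 of 10 for 2-copy over vector at 6 h (5 otherwise), 1 for 1-copy over vector at 0, 2 and 4 h and for 1-copy over 2-copy at 0 h (0 otherwise), and 2 for 1-copy over 2-copy at 4 h (4 otherwise). With scaling compounds 1, 2 and 4 in 2-copy cells called 1, 3 and 1 (4, 7 and 2 otherwise), and 2-copy over vector called 2 with compound 5 and 0 with compound 6 (7 and 1 otherwise). It gave 1 for 6 h minus 0 h, 0 for 6 h minus 4 h, 1 for the strain difference of compound 1 and 0 for the F test in 2-copy cells (4, 3, 2 and 2 otherwise). A dye term gave 0 for compound 1 in vector cells (3 otherwise), 2 for 2-copy over vector with compound 5 and with compound 6, and 6, 1 and 1 for the strain differences of compounds 2, 3 and 4 (2, 0 and 0 otherwise). With all 93 arrays the counts were 0 for 1-copy over 2-copy at 2 h, 2 for compound 1 and 0 for compound 4 in 2-copy cells, 0 for 2 h minus 0 h, and 1 and 2 for 2-copy over vector with compounds 3 and 6. The other sides of the loop gave 4 for the strain difference of compound 2.

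Fits to own arrays gave 1 for 2-copy over vector at 2 h and 2 at 6 h, and 2 and 1 for 1-copy over 2-copy at 2 and 6 h. They gave 1, 2 and 0 for compounds 1, 2 and 4 in 2-copy cells, 0 for compound 1 in vector cells and 0 for 2-copy over vector with compound 5. For 2 h and 6 h minus 0 h they gave 0 and 1, for the strain differences of compounds 1 to 4 0, 1, 3 and 1, and for the F test in 2-copy cells 0. The cause of these changes was not tested.

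Leaving out 1 replicate, counts ran from 1 to 2 for 2-copy over vector at 0 h and from 0 to 2 at 2 h, from 0 to 1 for 1-copy over vector at 2 h, and from 0 to 1 and 2 to 4 for 1-copy over 2-copy at 2 and 6 h. They ran from 2 to 4 for compound 1 and were 1 for compound 4 in 2-copy cells, from 0 to 3 for compound 1 in vector cells and from 2 to 6 for 2-copy over vector with compound 5. They were 0 for 2 h minus 0 h and ran from 2 to 4 for 6 h minus 0 h and from 0 to 2 for 6 h minus 4 h. For strain differences they ran from 1 to 5 with compound 1 and from 1 to 2 with compound 2, and for the F test in 2-copy cells they were 1.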
